A study of Caenorhabditis elegans with 27 samples.

Results

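The mitochondrial ribosomal protein genes of Caenorhabditis elegans were followed in 9 groups of RNA-seq libraries. Members were all genes whose name in the deposited tables begins with mrpl- (large subunit) or mrps- (small subunit). There were 63 such genes, 37 mrpl- and 26 mrps-, among 45461 features of the count table. Of these, 62 reached a mean of 100 normalized counts in input and entered the tests together with all 7418 genes that did so. The remaining member, mrpl-24, is named after a bacterial assembly protein of the large subunit and had 69.9, 41.1 and 14.3 normalized counts in gld-2(RNAi), 36.0, 65.8 and 40.6 in gld-4(RNAi), and 87.2, 130 and 75.6 in control RNAi input.

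Mitochondria keep ribosomes of their own, which translate the few mRNAs of the mitochondrial genome into core subunits of the respiratory chain. The ribosomal RNAs of these particles are encoded in mitochondrial DNA, whereas their proteins are all encoded in the nucleus, translated on cytosolic ribosomes and imported. Some of them are homologues of bacterial ribosomal proteins, and others are found only in mitochondria. In C. elegans, reduced dosage of mrps-5 is known to extend lifespan and to induce the mitochondrial unfolded protein response.

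All animals were young adults of the strain N2, fed bacteria that produced double-stranded RNA against gld-2 or gld-4, or carried the empty vector pL4440 as control RNAi. GLD-2 and GLD-4 are cytoplasmic poly(A) polymerases that are prominent in the germ line, which makes up much of an adult worm. Whole-worm extracts gave input mRNA and, after sucrose gradient centrifugation, pooled non-polysomal (NP) and polysomal (P) mRNA, with 3 libraries for each of the 9 combinations of RNAi and fraction. RNAi acted on the whole feeding animal, and all libraries were enriched for poly(A) RNA, so that levels are those of mRNA captured by oligo(dT).

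Libraries held 12160686 to 18132556 counts. The RNAi targets matched the labels. In input, gld-2 had 62.9 to 143 normalized counts in gld-2(RNAi), against 766 to 1447 in control RNAi. There, gld-4 had 127 to 261 in gld-4(RNAi), against 1601 to 2665 in control RNAi. In gld-4(RNAi) input, gld-2 had 786 to 1068, and in gld-2(RNAi) input, gld-4 had 1045 to 1858. In the gld-2(RNAi) fractions gld-4 lay below control, with 952 to 1223 in NP and 963 to 1358 in P. The control RNAi ranges were 2148 to 3218 and 2057 to 2797. Replicate 1 stood apart in every condition: the summed level of 60 sperm genes in input was 9908 CPM (counts scaled to library size) in replicate 1 of gld-2(RNAi) against 4181 and 4637 in the others, 3343 against 523 and 543 in gld-4(RNAi), and 1471 against 383 and 455 in control RNAi. Summed levels of cell type markers differed between conditions as well. The 7 female germ line markers summed to 2245 to 4363 CPM in gld-2(RNAi) and 9470 to 12801 in gld-4(RNAi), against 6703 to 8967 in control RNAi. The 5 muscle markers summed to 994 to 1627 in gld-2(RNAi) and 660 to 1479 in gld-4(RNAi), against 930 to 1454 in control RNAi, so that their ranges overlapped. The overlap of gld-4(RNAi) came from replicate 1, as replicates 2 and 3 had 660 and 692 against 930 and 1070. The 5 hypodermis markers, of which 3 passed the expression filter, summed to 698 to 1399 in gld-2(RNAi) and 473 to 1525 in gld-4(RNAi). In control RNAi they summed to 592 to 1041. Replicates 2 and 3 had 473 and 485 in gld-4(RNAi), against 592 and 619 in control RNAi. General germ line markers summed to 1305 to 1554 in gld-2(RNAi) and 3378 to 3450 in gld-4(RNAi), against 2458 to 2783 in control RNAi, with gld-1 the most abundant of the 5 in control RNAi. In gld-2(RNAi) 3 of these 5 genes fell, while pgl-3 and glh-1 rose by 0.77 and 0.66 on the log2 scale. The 5 neuron markers, of which only snb-1 passed the expression filter, summed to 144 to 207 in gld-2(RNAi) and 341 to 403 in gld-4(RNAi), against 230 to 293 in control RNAi. Intestinal markers summed to 11159 to 14991 in gld-4(RNAi), against 9613 to 11829 in control RNAi. In whole animals, fewer cells of a type and less RNA per cell cannot be told apart, and the part of these shifts in the results that follow was not tested.

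In control input the members formed a group of moderately expressed mRNAs. Their level per kilobase of exon ranged from 6.36 to 163 CPM, with a median of 61.1, against a median of 33.5 for all expressed genes, 205 for 44 respiratory chain genes and 3487 for the cytosolic ribosomal protein genes. The highest levels per kilobase belonged to mrpl-36 (163 ± 11.4, SD, n = 3), which encodes one of the smallest proteins of the large subunit, mrpl-11 (145 ± 7.88), a homologue of the bacterial protein at the factor-binding site, and mrps-11 (143 ± 2.59), a protein of the small subunit platform. At the low end were mrpl-24 (6.36 ± 1.87), mrps-31 (10 ± 3.92), a mitochondria-specific protein, and mrps-2 (17 ± 2.45), a homologue of a bacterial small subunit protein. Coding sequences were short, with a median of 619.5 bases, against 1197 for all expressed genes.

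The summed level of the 63 members separated gld-4(RNAi) from both other conditions. In input it was 3985, 3255 and 3299 CPM in replicates 1, 2 and 3 of gld-2(RNAi), 2185, 2090 and 2008 in gld-4(RNAi), and 3562, 3269 and 3236 in control RNAi. All 3 gld-4(RNAi) libraries lay below every control library, while the gld-2(RNAi) libraries overlapped control. The same separation was seen for the mrpl- and for the mrps- genes. The mrpl- genes summed to 1193 ± 21.3 CPM in gld-4(RNAi) and 1941 ± 64.0 in control RNAi, and the mrps- genes to 902 ± 84.3 and 1415 ± 115, in the same order (SD, n = 3 each).

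**Figure D1:**
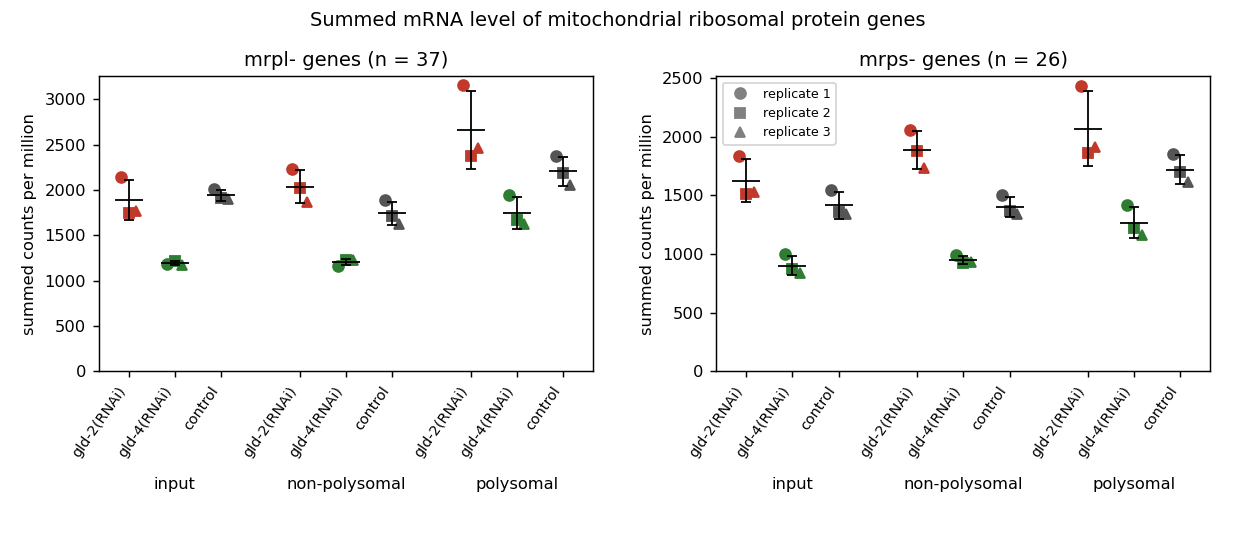
Summed level (CPM, TMM-scaled) of the mrpl- and the mrps- genes in each of the 27 libraries, with mean and SD of each group (n = 3). The gld-4(RNAi) libraries lie lowest in input, where mrpl- genes summed to 1193 ± 21.3 against 1941 ± 64.0 in control RNAi.

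The first question was whether loss of GLD-4 changed the amount of these mRNAs. In gld-4(RNAi) input, 38 of the 62 members fell relative to control (edgeR quasi-likelihood test, Benjamini-Hochberg adjusted p of at most 0.05 over all expressed genes), against 7.54% of all expressed genes. No member rose in this test, against 7.08% of all expressed genes. At unadjusted p below 0.05 there were 50 lower and 0 higher members, against 15.5% of all expressed genes lower, and DESeq2 called 42 lower and 0 higher, against 12.1% lower. The median log2 fold change of the members was -0.75, against 0.03 over all expressed genes, and 61 of 62 fitted values were below 0. In 58 members every gld-4(RNAi) replicate lay below the control of the same number, which held for 2639 of the 7418 expressed genes. In 51 members all 3 gld-4(RNAi) libraries lay below all 3 control libraries, which held for 20.6% of all expressed genes. By name, 24 of 36 mrpl- and 14 of 26 mrps- members were lower, with medians of -0.76 and -0.75.

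The 6 members that fell at least 2-fold, against 0.984% of all expressed genes, were 4 mrpl- and 2 mrps- genes by name. The largest fitted change was that of mrpl-10, a homologue of the bacterial protein that anchors the ribosomal stalk. It had 430, 421 and 425 normalized counts in gld-4(RNAi), against 931, 928 and 945 in control RNAi (log2 fold change -1.12, SE 0.11, adjusted p = 0.00900). The groups were far apart compared with the scatter within them. mrpl-4, a homologue of a protein lining the bacterial exit tunnel, had 296, 231 and 245 normalized counts in gld-4(RNAi), against 738, 502 and 441 in control RNAi (-1.11, SE 0.24, adjusted p = 0.0290). Its scatter was wider, with replicate 1 highest in both groups. mrps-30, which in mammals sits in the large subunit in spite of its name, had 673, 525 and 562 in gld-4(RNAi), against 1337, 1227 and 1207 in control RNAi (-1.09, SE 0.13, adjusted p = 0.0102).

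Further examples had the same form. mrpl-17, a homologue of a bacterial protein near the tunnel exit, had 500, 596 and 612 normalized counts in gld-4(RNAi), against 1148, 1210 and 1290 in control RNAi (-1.08, SE 0.13, adjusted p = 0.00979). mrpl-39, a mitochondria-specific protein, had 326, 453 and 420 in gld-4(RNAi), against 789, 900 and 861 in control RNAi (-1.07, SE 0.16, adjusted p = 0.0143). Neither gene had a gld-4(RNAi) library near the control range. mrps-5 had 917, 807 and 813 in gld-4(RNAi), against 1632, 1616 and 1685 in control RNAi (-0.95, SE 0.10, adjusted p = 0.00900), just short of a 2-fold decrease. The well-expressed mrpl-11 and mrps-11 fell less, by 0.66 and 0.57 on the log2 scale (SE 0.09 each, adjusted p = 0.0122 and 0.0159). For mrps-2 the decrease was 1.69-fold (adjusted p = 0.0436), whereas mrps-31 gave -0.92 with an SE of 0.43 and did not pass (adjusted p = 0.192), and mrpl-36 gave -0.41 with an SE of 0.19 (adjusted p = 0.201).

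Among the 24 members that did not pass was mrpl-40, a mitochondria-specific large subunit protein and the 1 member with a fitted value above 0. It had 1076, 1354 and 1446 normalized counts in gld-4(RNAi), against 1091, 1210 and 1301 in control RNAi (0.12, SE 0.14, adjusted p = 0.599). Its groups overlapped. In 5 members (mrpl-23, mrps-18A, mrps-18B, mrps-31 and mrps-33) replicate 1 was at least 1.5 times both other replicates in every input condition, which held for 7.35% of all expressed genes. Of these, mrps-33 had 413, 235 and 248 in gld-4(RNAi), against 651, 243 and 221 in control RNAi (-0.31, SE 0.47, adjusted p = 0.686), so that only replicate 1 was clearly lower. mrps-18A had 594, 261 and 257 in gld-4(RNAi), against 657, 224 and 236 in control RNAi (-0.01, SE 0.54, adjusted p = 0.994), and 24% of its exon length overlaps iglr-2 on the same strand in the reference annotation.

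These calls depended on how the replicates were treated. Same-numbered libraries deviated together, mainly as replicate 1 against replicates 2 and 3. With the replicate number as a block, 56 of the 62 members were lower and 0 higher in gld-4(RNAi). In the same fit 22.1% of all expressed genes were lower. With replicates 2 and 3 alone 55 were lower, against 26% of all expressed genes. When a single library was left out and the numbers were not paired, no gene of all 7418 passed the adjusted test without gld-4(RNAi) replicate 2, gld-4(RNAi) replicate 3 or control replicate 2, and 8 members passed without control replicate 3, against 1.27% of all expressed genes. In these fits 48, 42, 48 and 46 members still had unadjusted p below 0.05, against 24.9%, 26.3%, 22.5% and 25% of all expressed genes, and the members' median stayed between -0.82 and -0.68 over all 6 such fits.

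**Figure D2:**
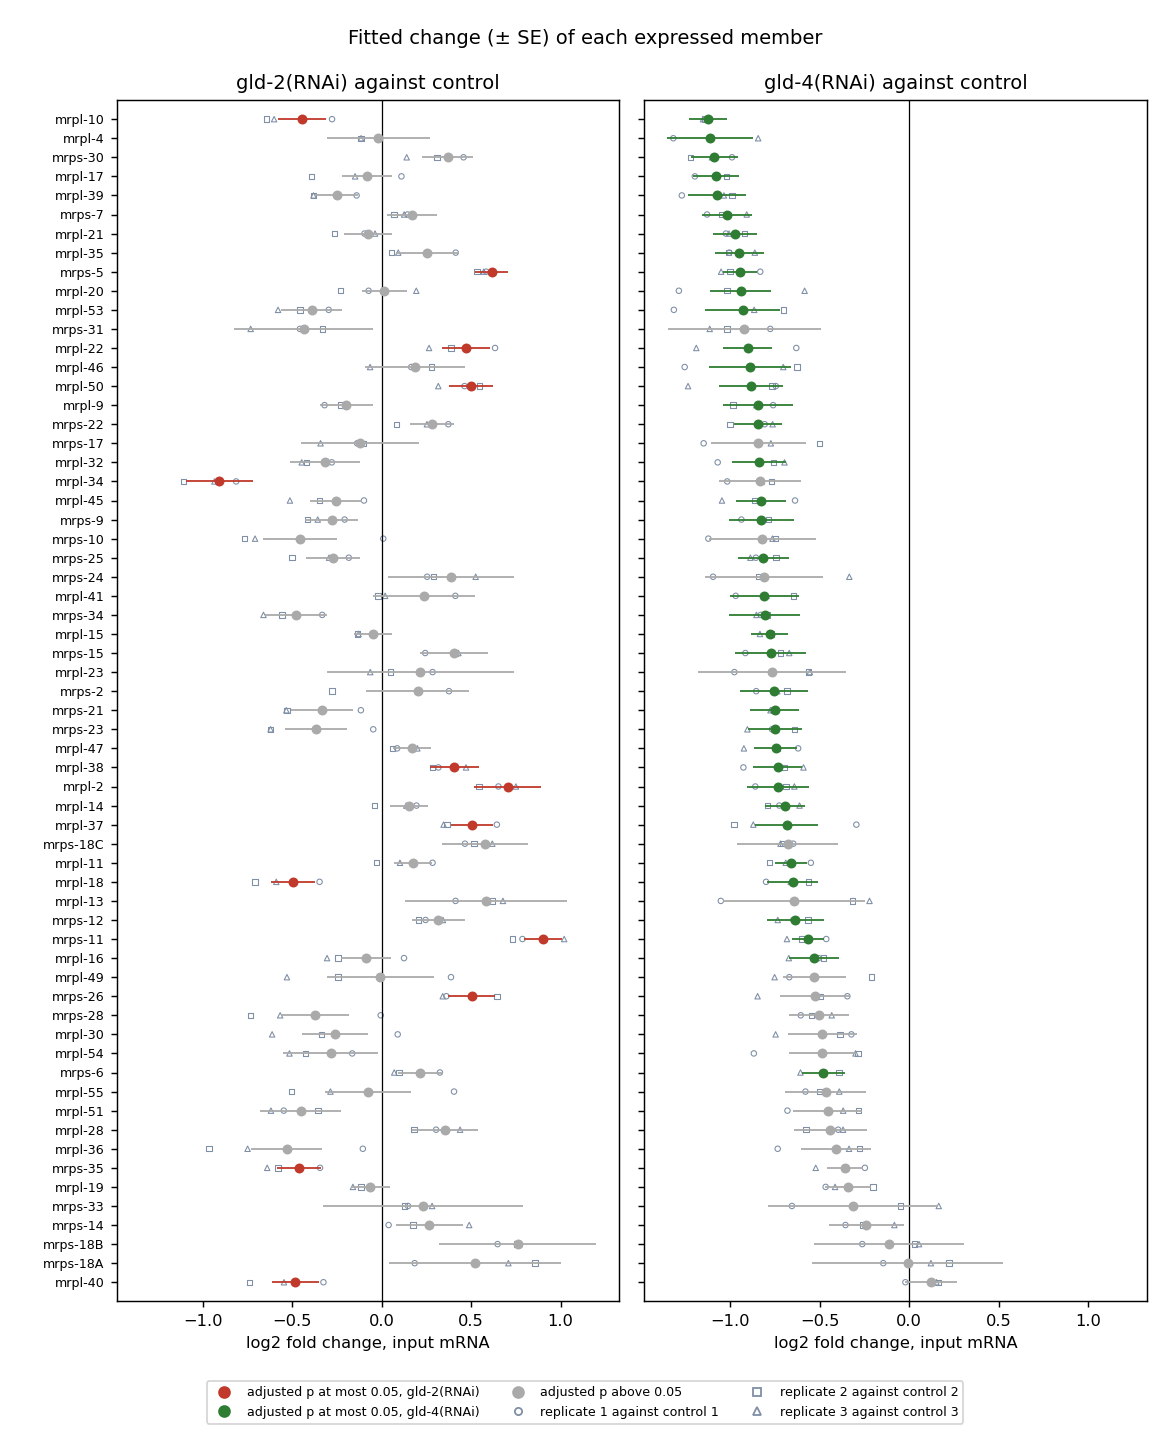
Fitted log2 fold change (± SE) of the 62 expressed members in input mRNA, gld-2(RNAi) against control at left and gld-4(RNAi) against control at right, ordered by the value in gld-4(RNAi). Open symbols give each replicate against the control of the same number. In gld-4(RNAi) 61 of 62 fitted values lie below 0, and in gld-2(RNAi) 31 lie on each side.

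Other lists of nuclear genes for mitochondrial proteins had medians between -0.41 and -0.04 in gld-4(RNAi) input. The median log2 fold change was -0.04 over 44 respiratory chain genes (0 higher, 4 lower), -0.41 over 4 genes of mitochondrial DNA and RNA synthesis (0 higher, 2 lower), -0.09 over 4 mitochondrial translation factors (0 higher, 1 lower), -0.32 over 13 import genes (1 higher, 5 lower), -0.30 over 11 mitochondrial aminoacyl-tRNA synthetases (0 higher, 3 lower) and -0.14 over 8 chaperones and proteases (0 higher, 2 lower). The 81 expressed genes named as cytosolic ribosomal proteins had a median of -0.12 (0 higher, 2 lower). The 2 lower were rps-2 and rpl-24.2, the latter with the symbol rsl-24D1 in the reference gene table. Single genes of these lists reached the range of the members. sars-2, the mitochondrial seryl-tRNA synthetase, averaged 396 normalized counts in gld-4(RNAi) and 954 in control RNAi (-1.26, SE 0.20, adjusted p = 0.0155). polg-1, the mitochondrial DNA polymerase, averaged 153 and 323 in the same order (-1.07, SE 0.17, adjusted p = 0.0159), and tsfm-1, a mitochondrial elongation factor, 742 and 1152 (-0.62, SE 0.12, adjusted p = 0.0213). hsp-6 and hsp-60, the chaperones used as reporters of the mitochondrial unfolded protein response, averaged 9854 and 8957 in gld-4(RNAi), and 7301 and 7392 in control RNAi. Their log2 fold changes of 0.45 (SE 0.14, adjusted p = 0.0788) and 0.29 (SE 0.14, adjusted p = 0.197) did not pass the test. With the replicate block, 3 of the 8 chaperones and proteases were called higher and 4 lower. In that fit 1766 of the 7418 expressed genes were higher and 1637 lower. Without the block 3 fitted values of the list were above 0, those of hsp-6 and hsp-60 among them. Both passed in gld-2(RNAi) input, at log2 fold changes of 0.87 (SE 0.12, adjusted p = 0.00183) and 0.70 (SE 0.23, adjusted p = 0.0428).

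**Figure D3:**
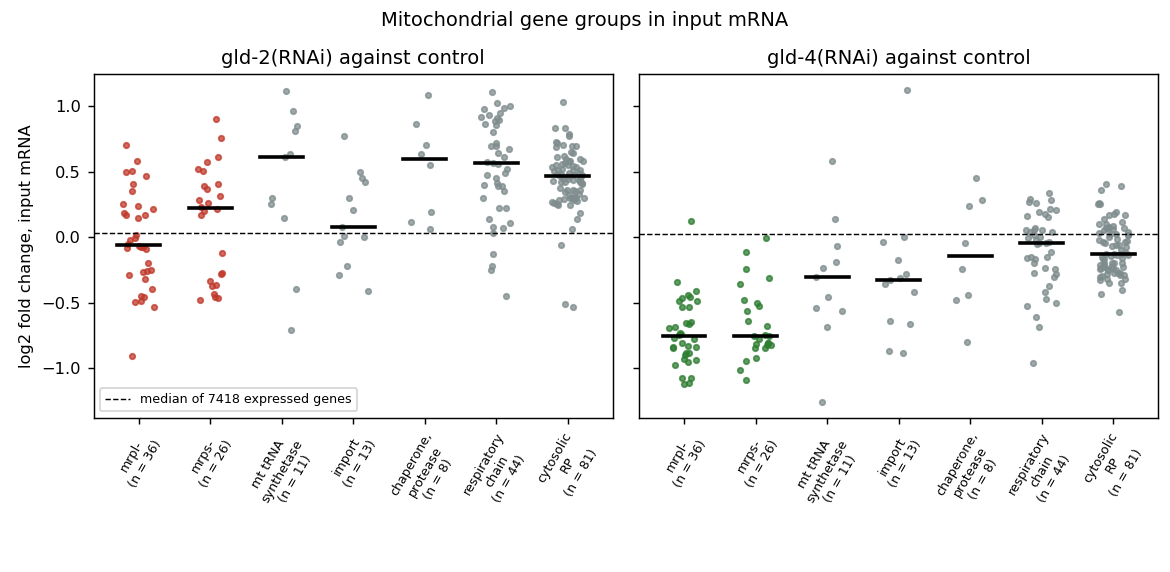
Fitted log2 fold change in input mRNA for single genes of mitochondrial gene groups and cytosolic ribosomal proteins (RP), gld-2(RNAi) against control at left and gld-4(RNAi) against control at right. Thick lines are medians of each group and the dashed line is the median of the 7418 expressed genes. In gld-4(RNAi) the mrpl- and mrps- medians are -0.76 and -0.75, and the respiratory chain median is -0.04.

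In gld-2(RNAi) input the members moved in both directions. Of 62 members, 8 rose and 5 fell, against 21.4% and 24.7% of all expressed genes. None changed 2-fold, whereas 610 of the 7418 expressed genes were called higher and 904 lower at 2-fold. Unadjusted p was below 0.05 in 17 members, against 53.5% of all expressed genes. The median log2 fold change was 0.00, against 0.03 over all expressed genes, with 31 fitted values on each side of 0. With the replicate block the counts were 18 higher and 11 lower, against 32% and 32.2% of all expressed genes. With replicates 2 and 3 alone they were 18 and 21, against 33.5% and 35.8%. With library size alone in place of TMM the split was 3 higher and 14 lower, against 14.4% and 30.8%, on a scale where the median of all genes was -0.15.

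Among the members that rose, mrps-11 had 2866, 2847 and 3376 normalized counts in gld-2(RNAi), against 1661, 1716 and 1665 in control RNAi (0.90, SE 0.11, adjusted p = 0.00100). mrps-5 had 2447, 2337 and 2502 in gld-2(RNAi), against 1632, 1616 and 1685 in control RNAi (0.62, SE 0.09, adjusted p = 0.00238). No gld-2(RNAi) library of either gene overlapped the control range. mrpl-2, a homologue of a bacterial protein close to the peptidyl transferase centre, had 1770, 1261 and 1341 in gld-2(RNAi), against 1126, 865 and 797 in control RNAi (0.70, SE 0.19, adjusted p = 0.0193). The mitochondria-specific mrpl-37 and mrps-26 each rose 1.42-fold (adjusted p = 0.0128 and 0.0180).

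The strongest decrease in gld-2(RNAi) was that of mrpl-34, a homologue of a small bacterial large subunit protein, with 414, 425 and 545 normalized counts in gld-2(RNAi), against 728, 917 and 1042 in control RNAi (-0.91, SE 0.19, adjusted p = 0.00776). In the reference annotation, 11.3% of its exon length overlaps aha-1 on the opposite strand. mrpl-40 had 870, 724 and 890 in gld-2(RNAi), against 1091, 1210 and 1301 in control RNAi (-0.48, SE 0.13, adjusted p = 0.0214), whereas it was not called in gld-4(RNAi). mrpl-18, mrps-35 and mrpl-10 fell by 0.50, 0.46 and 0.45 on the log2 scale (adjusted p = 0.0144, 0.0185 and 0.0328). The gld-2(RNAi) and control ranges did not overlap for any of these genes. In the same comparison 29 of 44 respiratory chain genes rose and 0 fell (median 0.57). The counts were 5 and 0 of 8 chaperones and proteases (0.60), 4 and 2 of 11 aminoacyl-tRNA synthetases (0.62), 3 and 1 of 4 genes of DNA and RNA synthesis (0.67), 2 and 0 of 4 translation factors (0.21) and 3 and 0 of 13 import genes (0.08). Among the 81 genes named as cytosolic ribosomal proteins 43 rose and 1 fell (median 0.47). The 1 that fell was rpl-24.2, which has the symbol rsl-24D1 in the reference gene table.

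The direct test of gld-2(RNAi) against gld-4(RNAi), which uses no control library but shares the RNAi libraries with the comparisons above, gave 36 members higher and 1 lower in gld-2(RNAi), against 20.8% and 25% of all expressed genes. Of these, 18 differed at least 2-fold, against 9.15% of all expressed genes. The median was 0.73, against 0.03 over all expressed genes, and in 44 members all gld-2(RNAi) libraries lay above all gld-4(RNAi) libraries, which held for 27.3% of all expressed genes. The widest gap was that of mrps-5, with 2447, 2337 and 2502 normalized counts in gld-2(RNAi), against 917, 807 and 813 in gld-4(RNAi) (1.53, SE 0.11, adjusted p = 0.000128). mrps-11, mrps-30 and mrpl-2 followed at 1.43, 1.42 and 1.4 (adjusted p = 0.000202, 0.000649 and 0.000728). mrpl-50, a mitochondria-specific protein, had 1413, 1385 and 1160 in gld-2(RNAi), against 611, 557 and 395 in gld-4(RNAi) (1.35, SE 0.19, adjusted p = 0.00137). The exception was mrpl-40, lower in gld-2(RNAi) by 0.64 on the log2 scale (fitted value -0.64, SE 0.16, adjusted p = 0.0173). It was not called when gld-2(RNAi) replicate 2, gld-4(RNAi) replicate 2 or gld-4(RNAi) replicate 3 was left out, which gave 0 lower members.

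The lower level in gld-4(RNAi) was also seen in both gradient fractions. These were separate libraries, but the whole-worm extracts gave both input and fractions, so they are not an independent set of animals. In NP mRNA the members summed to 2157, 2150 and 2155 CPM in gld-4(RNAi), against 3386, 3078 and 2967 in control RNAi. In P mRNA they summed to 3366, 2886 and 2788 in gld-4(RNAi), against 4227, 3888 and 3669 in control RNAi. No gld-4(RNAi) library reached the lowest control library in either fraction. For single genes, all 3 gld-4(RNAi) libraries lay below all 3 control libraries in 54 of 62 members in NP and 37 in P, against 22% and 18.9% of all expressed genes. The members' median log2 difference from control was -0.56 in NP and -0.37 in P, against 0.05 and -0.01 over all expressed genes. mrpl-10 had 416, 448 and 440 normalized counts in NP of gld-4(RNAi), against 872, 753 and 722 in control RNAi, and 660, 615 and 670 in P of gld-4(RNAi), against 1086, 921 and 867 in control RNAi. mrps-5 had 1016, 778 and 793 in NP of gld-4(RNAi), against 1648, 1350 and 1387 in control RNAi, and 1229, 967 and 923 in P of gld-4(RNAi), against 1887, 1747 and 1711 in control RNAi. The gld-4(RNAi) and control ranges of both genes were separate in both fractions.

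In gld-2(RNAi) both fractions held as much or more of the members' mRNA when summed. The members summed to 4286, 3902 and 3595 CPM in NP of gld-2(RNAi), against 3386, 3078 and 2967 in control RNAi, and to 5587, 4233 and 4376 in P of gld-2(RNAi), against 4227, 3888 and 3669 in control RNAi. In NP, 30 of 62 members lay above control in every library, against 35.6% of all expressed genes, and in P 22 did, against 25.8%. As shares of the members these are 48.4% and 35.5%. Below control in every library were 10 members in NP and 0 in P, against 31.5% and 28.2% of all expressed genes. mrps-5 had 3333, 2546 and 2396 in NP of gld-2(RNAi), against 1648, 1350 and 1387 in control RNAi, and 2577, 2198 and 2287 in P of gld-2(RNAi), against 1887, 1747 and 1711 in control RNAi.

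**Figure D4:**
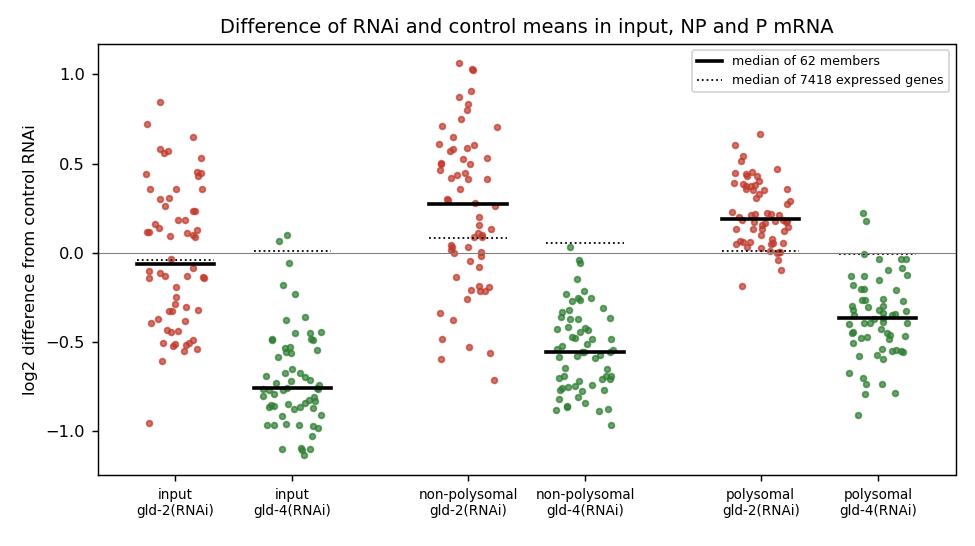
Difference between the RNAi and the control mean of log2(normalized count + 1) for each of the 62 expressed members in input, NP and P mRNA. Thick lines are medians of the members and dotted lines medians of the 7418 expressed genes. In gld-4(RNAi) the members' medians are -0.76 in input, -0.56 in NP and -0.37 in P.

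A further question was how the members' mRNAs are distributed between polysomal and non-polysomal RNA. The P/NP ratio is relative to other mRNAs, because TMM scaling centres the NP and P libraries on a common level and no spike-in feature is in the count table. In control RNAi 32 of 62 members were higher in P and 5 higher in NP, against 33.6% and 35.9% of all expressed genes. Of those higher in P, 8 passed 2-fold, against 18% of all expressed genes. None of those higher in NP did, against 1067 of the 7418 expressed genes. The median log2 P/NP was 0.30 over the members, against 0.05 over all expressed genes, 1.17 over the cytosolic ribosomal protein genes and 0.99 over the respiratory chain genes. The members thus lay above the genes in general and below both of these groups, with a range of -0.80 to 1.51. With library size alone the split was 16 in each direction, against 21.9% of all expressed genes higher and 45.5% lower, on a scale where the median of all genes was -0.31. With the replicate block it was 42 higher and 9 lower, against 43.3% and 41%. Without gradient 2 there were 16 higher and 1 lower, against 21.9% and 27.2%, and without gradient 3 there were 19 and 1, against 23.8% and 27.3%.

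The polysomal end of the range was held by mrpl-22, a homologue of a bacterial exit tunnel protein. It had 1179, 945 and 904 normalized counts in P, against 413, 304 and 341 in NP of control RNAi (log2 P/NP 1.51, SE 0.17, adjusted p = 0.000348). mrpl-37 had 1684, 1366 and 1293 in P, against 622, 505 and 573 in NP (1.34, SE 0.14, adjusted p = 0.000264). Each of their gradients held more than 2 times as many normalized counts in P as in NP. mrps-12, a homologue of the bacterial decoding site protein, had 849, 786 and 680 in P, against 318, 283 and 344 in NP (1.28, SE 0.14, adjusted p = 0.000256). mrpl-41, a mitochondria-specific protein, and mrpl-15, a homologue of a bacterial large subunit protein, followed at 1.14 and 1.13 (adjusted p = 0.000935 and 4.44e-05).

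At the non-polysomal end was mrpl-18, a homologue of a bacterial protein of the central protuberance, with 737, 626 and 562 normalized counts in P, against 1183, 1155 and 994 in NP (-0.80, SE 0.13, adjusted p = 0.00170). mrps-11 had 1425, 1209 and 1005 in P, against 2066, 1629 and 1660 in NP (-0.57, SE 0.17, adjusted p = 0.0196). The P libraries of both genes lay below all NP libraries. mrpl-32, mrpl-40 and mrpl-34 followed at -0.46, -0.44 and -0.26 (adjusted p = 0.0409, 0.00698 and 0.0403). Across the 62 members log2 P/NP and coding length had little linear or rank relation (Pearson r = 0.01, Spearman rho = -0.11, across genes that share the same libraries and are not independent).

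**Figure D5:**
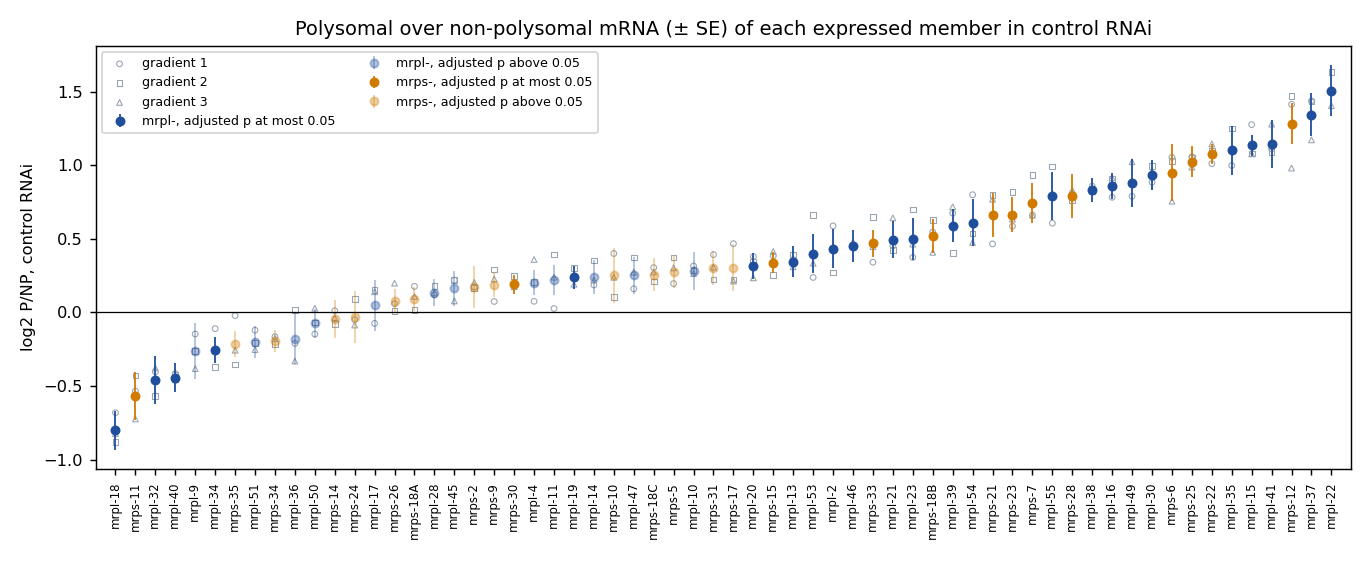
Fitted log2 P/NP (± SE) of the 62 expressed members in control RNAi, in rank order, with each gradient as an open symbol. Values run from -0.80 for mrpl-18 to 1.51 for mrpl-22, and 49 of 62 lie above 0.

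Whether RNAi changed this distribution was tested with an interaction term, fitted to the NP and P libraries of the RNAi and of control. In gld-4(RNAi) no member passed in either direction, against 0.0135% of all expressed genes higher and 0.027% lower. The edgeR test gave 15 members with unadjusted p below 0.05, all with a higher P/NP, against 6.2% of all expressed genes in that direction, and DESeq2 called 2 higher, against 0.957%. With 1 level per gradient as replicate block 3 members were higher in gld-4(RNAi), against 0.58% of all expressed genes. These were mrpl-39, mrpl-32 and mrps-25, named after their values were seen. mrpl-39 had P/NP ratios of 2.93, 2.34 and 2.39 in gld-4(RNAi), against 1.60, 1.32 and 1.65 in control RNAi (0.81, SE 0.18, adjusted p = 0.105 without the block and 0.0431 with it). The median change over the members was 0.23, against 0.02 over all expressed genes.

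In gld-2(RNAi) no member passed either, against 2.95% of all expressed genes higher and 3.64% lower. The edgeR test gave 16 members with unadjusted p below 0.05, against 21.8% of all expressed genes, and DESeq2 called 5 higher and 0 lower, against 7.95% and 4.85%. With the replicate block 9 members were higher and 10 lower, against 10.1% and 20.7% of all expressed genes. An example in each direction was chosen after its values were seen. mrps-11 had P/NP ratios of 0.480, 0.409 and 0.465 in gld-2(RNAi), against 0.690, 0.742 and 0.605 in control RNAi (-0.60, SE 0.26, adjusted p = 0.221 without the block and 0.00339 with it). mrpl-40 had ratios of 1.36, 1.03 and 1.14 in gld-2(RNAi), against 0.749, 0.744 and 0.727 in control RNAi (0.67, SE 0.20, adjusted p = 0.0791 without the block and 0.00297 with it). In both genes the gld-2(RNAi) ratios did not overlap the control ratios.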

How the data were processed

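To make the deposited counts, the authors proceeded as follows: adapters were removed with cutadapt, reads were aligned uniquely with TopHat2 to the WS220 genome, and reads per gene were counted with featureCounts of Subread 1.4.0. The kit is described as strand-specific and the sequencing as not strand-specific, and the strand setting of the counting is not given in the sources used here. The deposited comparison tables hold fold changes, p-values and mean signals of the authors, none of which were used. They served only for gene names. Their 72 columns of single-sample values were left aside.

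Members matched by sequence ID in all 63 cases. The members, the other gene lists and the tests were chosen with earlier results of these data known. The expression filter kept genes averaging 100 or more TMM-normalized counts in input (9 libraries). The 6 comparisons were fitted over these with the robust quasi-likelihood test of edgeR 4.0.16 in R 4.3.3 and Benjamini-Hochberg adjustment over all of them, at adjusted p of at most 0.05. The SE is the log2 fold change divided by the square root of F. Printed counts were TMM-scaled over 9 input or 18 fraction libraries, using factors from the expressed genes. No spike-in scaling was possible, since 0 features carry its name. Exon lengths and overlaps come from the Ensembl annotation of WBcel235, which is not the build of the counts, so no coordinates are given.

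Same-numbered libraries of the groups compared deviated together from their group means (correlations of 0.574 to 0.905, different numbers -0.884 to 0.870). This mainly set replicate 1 against replicates 2 and 3. In every condition, P replicate 2 followed NP replicate 3 more closely than NP replicate 2 (0.870 against 0.801 in gld-4(RNAi)). The pairing of replicates 2 and 3 was therefore taken from the label numbers and is not shown by these correlations. The labels do not say that the replicates are separate cultures, and p-values measure only the spread between these libraries. For P/NP changes the block had 1 level per gradient.

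Named genes were, in each comparison, up to 5 members per direction with the largest change among those at adjusted p of at most 0.05 that moved the same way in every replicate number, the 3 highest and 3 lowest members by level per kilobase and by control P/NP, mrps-5, and members missing the expression filter. The members with high replicate 1 values and the examples from other gene lists were named after their values were seen. Alternatives were scaling to library size, DESeq2 1.42.0, no expression filter, a replicate block, leaving out each library or gradient, membership by the reference gene table, and, added after the data were seen, replicates 2 and 3 alone. The fits were tested on simulated data. The simulated counts held no shared replicate effect, so they do not test how the replicates were treated.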

Additional observations from a re-analysis of the deposited data

How the results depend on the processing

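In gld-4(RNAi) input the number of lower members was 26 to 56 under the other settings and 0 to 38 when 1 library was left out. Without an expression filter, 323 of all 19294 genes were lower. Under the remaining settings 559 to 1928 of the 7418 expressed genes were lower, and 0 to 610 when 1 library was left out. Membership by the reference gene table, which adds 8 genes, of which 6 are expressed and 4 were lower, and leaves out mrpl-14, which was lower, gave 41 of 67. Counts were less stable elsewhere. In gld-2(RNAi) input, higher and lower members numbered 3 and 14 with library size alone, 18 and 11 with the replicate block, and 18 and 21 with replicates 2 and 3 alone, and 2 were higher without an expression filter. Without that filter 2159 of all 19767 genes were higher. Leaving out 1 library gave 2 to 12 higher and 1 to 11 lower members. The same fits gave 1029 to 1710 higher and 1280 to 2003 lower of the 7418 expressed genes. For gld-2(RNAi) input against gld-4(RNAi) input, leaving out 1 library gave 24 to 35 higher and 0 to 1 lower members. Over the 7418 expressed genes these fits gave 998 to 1707 higher and 1412 to 2064 lower. Replicates 2 and 3 alone gave 2 lower members, against 2672 lower expressed genes. For control P/NP, higher and lower members numbered 16 and 16 with library size alone, 18 were higher without an expression filter, and 9 were lower with the replicate block and with replicates 2 and 3 alone. Without the filter 2586 of all 20656 genes were higher, and with replicates 2 and 3 alone 3066 of the 7418 expressed genes were lower. Leaving out 1 gradient gave 16 to 37 higher and 1 to 9 lower members. The same fits gave 1628 to 3120 higher and 2021 to 3066 lower expressed genes. For the P/NP change in gld-2(RNAi), higher and lower members numbered 4 and 2 with library size alone, 9 and 10 with the replicate block, and 13 and 13 with replicates 2 and 3 alone, and DESeq2 called 5 higher. Of the 7418 expressed genes, 210 were higher and 119 lower with library size alone, and 1514 and 1217 with replicates 2 and 3 alone. Leaving out 1 gradient gave 0 to 6 higher and 0 to 1 lower members. The same fits gave 0 to 580 higher and 0 to 176 lower expressed genes. For the P/NP change in gld-4(RNAi), 2 were higher with DESeq2, 3 with the replicate block and 8 with replicates 2 and 3 alone. The last fit called 532 of the 7418 expressed genes higher. The cause of the differences between settings was not tested. In all, 93 of the counts recomputed stayed within 1.5 times the main count and 45 did not. Many of the 93 were 0 against a main count of 0, some in fits where no gene of all 7418 passed. For control P/NP, leaving out gradient 1 and using replicates 2 and 3 alone are the same fit, entered under both names. The tally is therefore no measure of stability. With 3 libraries a group, changes under 2-fold pass the adjusted test only where replicates are close.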
